A study of Mus musculus with 216 samples.

Results

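Hearts of male mice aged 27 months, labelled old, were compared with hearts of male mice aged 6 months, labelled young, across all genes. The comparison rests on 24 of the 216 RNA-seq libraries of the series: the 12 heart libraries labelled old and the 12 labelled young, chosen by tissue and age label, with 1 library of each age at each of 12 circadian times from 18 to 62 h in steps of 4 h. The 12 heart libraries of mice aged 18 months, labelled aged, were used to place each change in time, and the 120 young and old libraries of hypothalamus, lung, kidney, skeletal muscle and adrenal gland were used to ask whether the heart differed from other tissues. The labels give a single strain, C57B6/J-NIA, at every age, and name no genotype or treatment, so the mice are described only by sex, age, strain and time of collection. The series set out to describe how daily gene expression changes with age in each tissue. According to its design text, 2 samples per age were pooled before sequencing, so a library is not a single mouse, and the p-values below measure the spread between these pooled libraries.

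Heart libraries held 9.44 to 13.8 M counts (median 11.4 M) in young mice, 10.3 to 16.6 M (median 13.6 M) in aged mice and 12.3 to 21 M (median 14.6 M) in old mice. The label says only heart. The ventricular and general cardiomyocyte genes Myh6, Actc1, Tnnt2, Myl2 and Ryr2 were abundant, with median levels in CPM (counts per 1000000 counts of the library, normalised) in young hearts between 1119 for Ryr2 and 19972 for Myh6, whereas the atrial myosin light chain Myl7 reached at most 4.03 CPM and the atrial sarcolipin gene Sln at most 0.382 CPM in any heart library. Judged by Myl7 and Sln, the libraries held little atrial RNA. The summed level of 10 listed atrial markers was 701 to 866 CPM (median 774) in young and 602 to 1294 CPM (median 829) in old hearts. One young library, that of circadian time 30, stood apart from the other 11: the neutrophil gene S100a8 was at 39.7 CPM there and at most 1.15 CPM in the others, complement C3 was at 824 CPM and C4b at 77.4 CPM. The aged library of time 58 had a like profile, with S100a8 at 50.8 CPM, C3 at 831 CPM and C4b at 115 CPM. Results touched by the library of time 30 are given with and without that time. Among the old libraries, that of time 50 had the highest S100a8 (15.25 CPM), C3 (794 CPM) and C4b (215 CPM). The changes of these genes are also given without time 50.

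The heart of a mouse lives on mitochondrial oxidation of fatty acids, and its muscle cells contract with the fast alpha myosin heavy chain encoded by Myh6. The slower beta chain encoded by Myh7 is the fetal form and is known to return in stressed or ageing hearts. Interferon-stimulated genes are switched on when cells sense viral or misplaced nucleic acid, complement proteins tag material for removal, and both groups are widely known to rise with age in mouse tissues.

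Of 14445 genes with enough counts to test, 3119 (21.6%) were higher and 3136 (21.7%) were lower in old than in young heart by edgeR's quasi-likelihood test with circadian time as a block, at a Benjamini-Hochberg adjusted p under 0.05. A gene that passed this threshold is said below to have risen or fallen, and every change is old minus young on the log2 scale with its standard error (SE). Counts for the gene lists below stand against these shares of 21.6% and 21.7% over all genes tested. Most changes were small: the median size among the genes called was 0.31, and 586 genes rose and 422 fell by 1.5-fold or more. At 2-fold or more the balance shifted toward rises, with 179 genes up and 58 down. In 554 of the genes that rose (3.84% of those tested) and 660 of those that fell (4.57%), the old library was on the same side of the young one at all 12 circadian times. For 116 genes (0.803%) every old library lay above every young library, and for 49 (0.339%) every old library lay below.

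**Figure D1:**
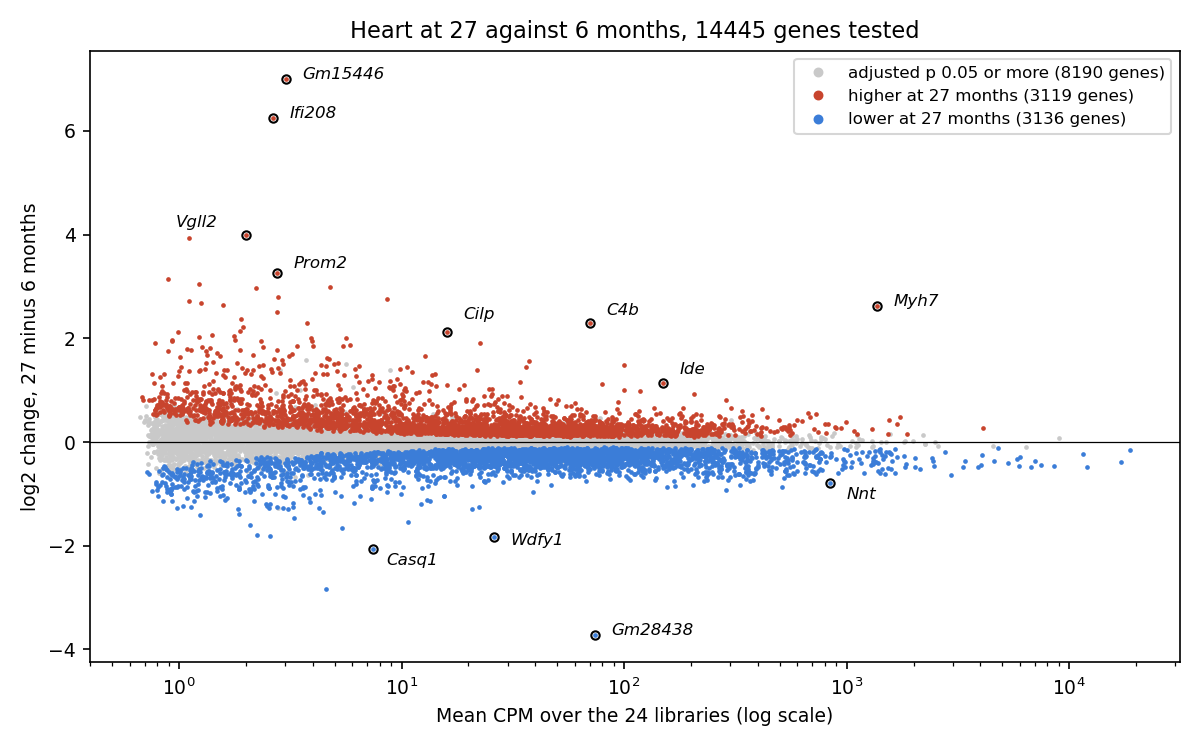
Each point is a gene, with its mean CPM over the 24 libraries on a log scale on the x axis and its log2 change (27 minus 6 months) on the y axis. Red points (3119 genes) were higher and blue points (3136 genes) lower in old heart at an adjusted p under 0.05, grey points were not called, and ringed points are genes described in the text, among them Myh7, which stands out at high abundance.

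This balance of rises and falls depends on how libraries are scaled. The values above use edgeR's trimmed mean of M values (TMM), which places the median gene at a change of 0.02. With library totals alone, every change shifts upward by about 0.11, and 5775 genes were higher and 1802 lower. For groups of genes whose median turns sign or whose balance of rises and falls moves with that shift, the values with library totals alone stand beside the others. Gene length also moved with the changes. Among the decile of genes with the shortest exons, 48.9% were lower and 7.04% higher in old heart, and among the longest decile 4.88% were lower and 41.6% higher. Across genes, Spearman's rho between exon length and log2 change was 0.37 over 14336 genes, which are not independent replicates. Its part in the results was not tested beyond a fit with the trend on length and GC content removed, in which 2896 genes (20.2%) were higher and 2609 (18.2%) lower.

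**Figure D2:**
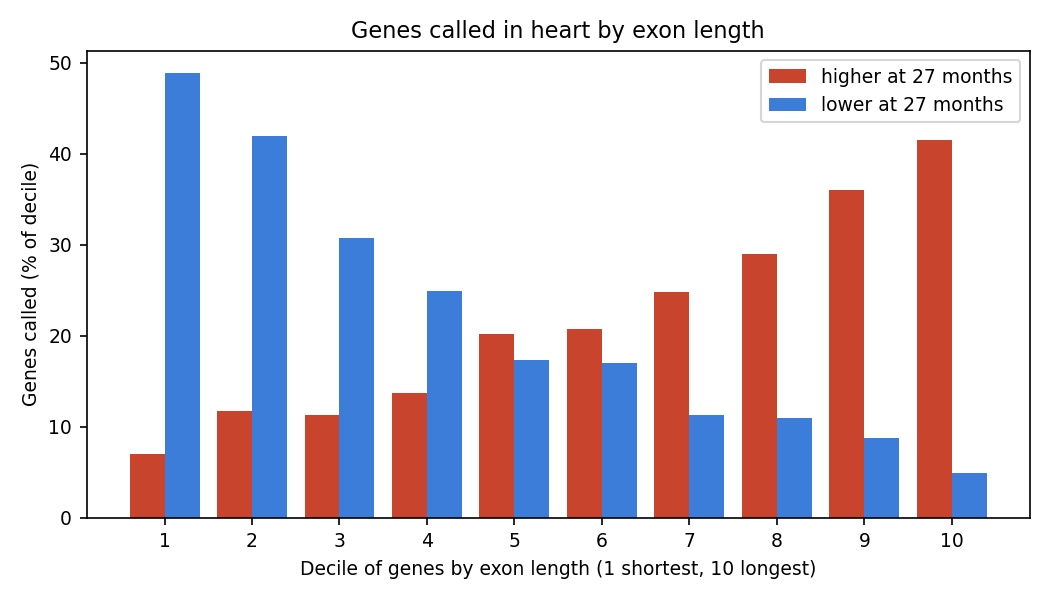
Bars give the percentage of genes called higher (red) and lower (blue) at 27 months in each decile of genes ordered by exon length, from the shortest (1) to the longest (10). The share called lower runs from 48.9% in the shortest decile to 4.88% in the longest, and the share called higher from 7.04% to 41.6%.

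Among genes with a mean of at least 1 CPM, predicted genes aside, the largest change was that of Ifi208, a member of the Ifi200 (PYHIN) family of interferon-inducible genes, some of which encode sensors of foreign or misplaced DNA. Ifi208 lies on chromosome 1 (chr1:173673675-173698395, plus strand, GRCm38), within a cluster of its relatives. Young hearts ranged from 0 to 0.230 CPM with a median of 0.0446, and old hearts from 3.30 to 7.26 CPM with a median of 5.57. The gene was all but silent in young hearts, where 6 of 12 libraries had no count and all 12 together had 8, against 963 counts in the old libraries. The change was 6.25 (SE 0.25, adjusted p = 7.41e-12), and the groups did not overlap. At 18 months Ifi208 was already at 2.37 to 5.61 CPM (median 3.71). The aged minus young change was 5.84 (adjusted p = 1.52e-14) and the old minus aged change 0.39 (adjusted p = 0.0592). These 2 comparisons share the aged libraries, and aged against young and old against young share the young libraries.

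Ifi208 was 1 of 15 family members listed, of which 11 had enough counts to test, and 10 of the 11 rose while none fell, with a median change of 0.78 against 0.02 over all genes tested. Ifi213 rose from 0.764 to 2.46 CPM (median 1.65) in young to 3.67 to 9.57 CPM (median 6.22) in old hearts, a change of 2.01 (SE 0.16, adjusted p = 1.65e-07), again with no overlap. Ifi204, whose human counterpart IFI16 senses DNA, rose from 5.79 to 10.3 CPM (median 7.94) to 11.7 to 21.9 CPM (median 15.3), a change of 0.96 (SE 0.10, adjusted p = 3.8e-06), and its groups did not overlap either. Ifi206 rose by 1.71, Aim2, which encodes the DNA sensor of the AIM2 inflammasome, by 0.80, and Ifi203, Ifi207, Ifi209, Ifi211 and Mndal by 0.33 to 0.78, the call of Ifi211 being lost without any of times 22, 34, 38, 42, 50 or 58. Ifi205 was the tested member that was not called, at -0.16 (adjusted p = 0.295). Leaving out each circadian time in turn left 9 or 10 members higher. The family's genes are near-identical copies in places, so reads may have been divided among them in ways that cannot be traced from counts.

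RefSeq promoter windows (250 bases before to 50 after a transcript's start, GRCm38.p6) show how alike these genes are and where they match the core of a DNA element known to bind interferon-activated factors. The windows of the 3 family members with the largest rises and, for comparison, of the classical interferon target Ifit1 follow, 5′ to 3′ along the gene's strand. Capitals mark matches to the core of the interferon-stimulated response element, GAAANNGAAA, on either strand. The window of Ifi208 is chr1:173673415-173673714 (plus strand), that of Ifi213 chr1:173599223-173599522 (minus), that of Ifi206 chr1:173491269-173491568 (minus) and that of Ifit1 chr19:34640639-34640938 (plus).
Ifi208: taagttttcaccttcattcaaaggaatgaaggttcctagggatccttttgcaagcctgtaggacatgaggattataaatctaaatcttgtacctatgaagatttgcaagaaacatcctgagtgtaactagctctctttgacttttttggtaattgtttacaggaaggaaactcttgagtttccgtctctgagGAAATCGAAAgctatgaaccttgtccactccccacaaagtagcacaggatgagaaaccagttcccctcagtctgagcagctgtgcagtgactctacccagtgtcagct
Ifi213: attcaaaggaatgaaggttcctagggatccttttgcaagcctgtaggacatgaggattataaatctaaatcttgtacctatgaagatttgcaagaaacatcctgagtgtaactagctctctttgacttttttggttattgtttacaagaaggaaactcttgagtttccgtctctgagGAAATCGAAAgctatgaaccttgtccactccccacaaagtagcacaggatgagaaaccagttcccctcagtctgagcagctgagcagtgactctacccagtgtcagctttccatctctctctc
Ifi206: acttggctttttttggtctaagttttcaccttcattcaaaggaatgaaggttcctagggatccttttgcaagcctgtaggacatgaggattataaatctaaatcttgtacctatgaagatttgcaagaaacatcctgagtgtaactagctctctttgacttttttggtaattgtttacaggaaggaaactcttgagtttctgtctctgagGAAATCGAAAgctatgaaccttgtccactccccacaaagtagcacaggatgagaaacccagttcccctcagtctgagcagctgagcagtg
Ifit1: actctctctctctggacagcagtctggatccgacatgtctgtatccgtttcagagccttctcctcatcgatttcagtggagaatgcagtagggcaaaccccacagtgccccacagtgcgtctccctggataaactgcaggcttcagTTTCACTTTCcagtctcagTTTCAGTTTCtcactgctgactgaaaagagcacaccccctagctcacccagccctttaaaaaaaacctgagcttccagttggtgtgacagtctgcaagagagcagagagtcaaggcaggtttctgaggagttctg
The core stands 58 bases before the start in Ifi208, 73 before it in Ifi213 and 40 before it in Ifi206. Ifit1 holds 2 copies, both on the opposite strand. The Ifi208 window shares an unbroken run of 182 bases with that of Ifi206 and of 135 bases with that of Ifi213, whereas its longest run in common with Ifit1 is 8 bases. The core was present in 10 of 14 windows of the family (71.4%, covering 9 of 12 genes with a window) and in 23 of 43 windows of the interferon-stimulated genes (53.5%, 22 of 38 genes), against 1131 of 32851 windows of all genes (3.44%). It was found in 2 of 18 windows of the complement genes (11.1%). The core of the STAT site, TTCNNNGAA, which can overlap the first motif, was in 1 of the family's windows (7.14%), 11 of those of the interferon-stimulated genes (25.6%) and 2 of those of the complement genes (11.1%), against 2726 of all windows (8.30%). Among tested family members that rose, Ifi203, Ifi206, Ifi207, Ifi208, Ifi211, Ifi213 and Mndal held the first core in at least 1 window. Ifi209 and Aim2 rose and held none, and Ifi205, which was not called, held 2 copies. Irf7, Irf9 and Oasl1 of the interferon-stimulated genes also rose and held none. A match is a run of letters and not a known binding site. No window was in the table for Ifi204, Oas2, C4b or C4a.

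The wider set of interferon-stimulated genes rose as well. Of 51 genes listed, all were tested, 38 rose and none fell, and the median change was 0.47. In 15 of the 38 the old library was higher at all 12 times. Irf7, the transcription factor that amplifies type I interferon production, rose from 14.2 to 30.9 CPM (median 19.99) to 30.02 to 68.4 CPM (median 48.8), a change of 1.16 (SE 0.13, adjusted p = 9.88e-06). The lowest old library fell just inside the young range. Oas2, which makes the messenger that activates RNase L, rose from 7.42 to 16.8 CPM (median 12.7) to 17.9 to 32.2 CPM (median 26.1), a change of 1.10 (SE 0.12, adjusted p = 8.05e-06), and Ifit1, which binds viral RNA, rose from 7.19 to 15.4 CPM (median 11.5) to 16.4 to 37.0 CPM (median 23.1), a change of 1.03 (SE 0.11, adjusted p = 5.16e-06). Neither gene's groups overlapped. Oas3 rose by 1.81, the antiviral GTPase Mx1 by 1.34, the Z-form nucleic acid sensor Zbp1 by 1.31, Oasl1 by 1.19 and the ubiquitin-like modifier Isg15 by 0.58.

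Among the factors that carry the signal to these promoters, Stat2 rose by 0.59 (SE 0.06, adjusted p = 4.96e-06) and Irf9, its partner, by 0.40. From 6 to 18 months 13 interferon-stimulated genes rose, and from 18 to 27 months 14 rose, with none falling in either step. Across all genes, 1355 (9.15%) rose and 1197 (8.09%) fell in the first step, and 1284 (8.67%) rose and 1359 (9.18%) fell in the second. Irf7 was at 20.6 to 44.8 CPM (median 33.2) at 18 months, between the other ages, and both of its steps were called (0.61, adjusted p = 0.0103, and 0.56, adjusted p = 0.0117). The summed level of 17 macrophage markers, whose members are given below, was also higher in old hearts, and its part in these rises was not tested. In whole tissue, more cells of a type and more RNA per cell cannot be told apart.

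**Figure D3:**
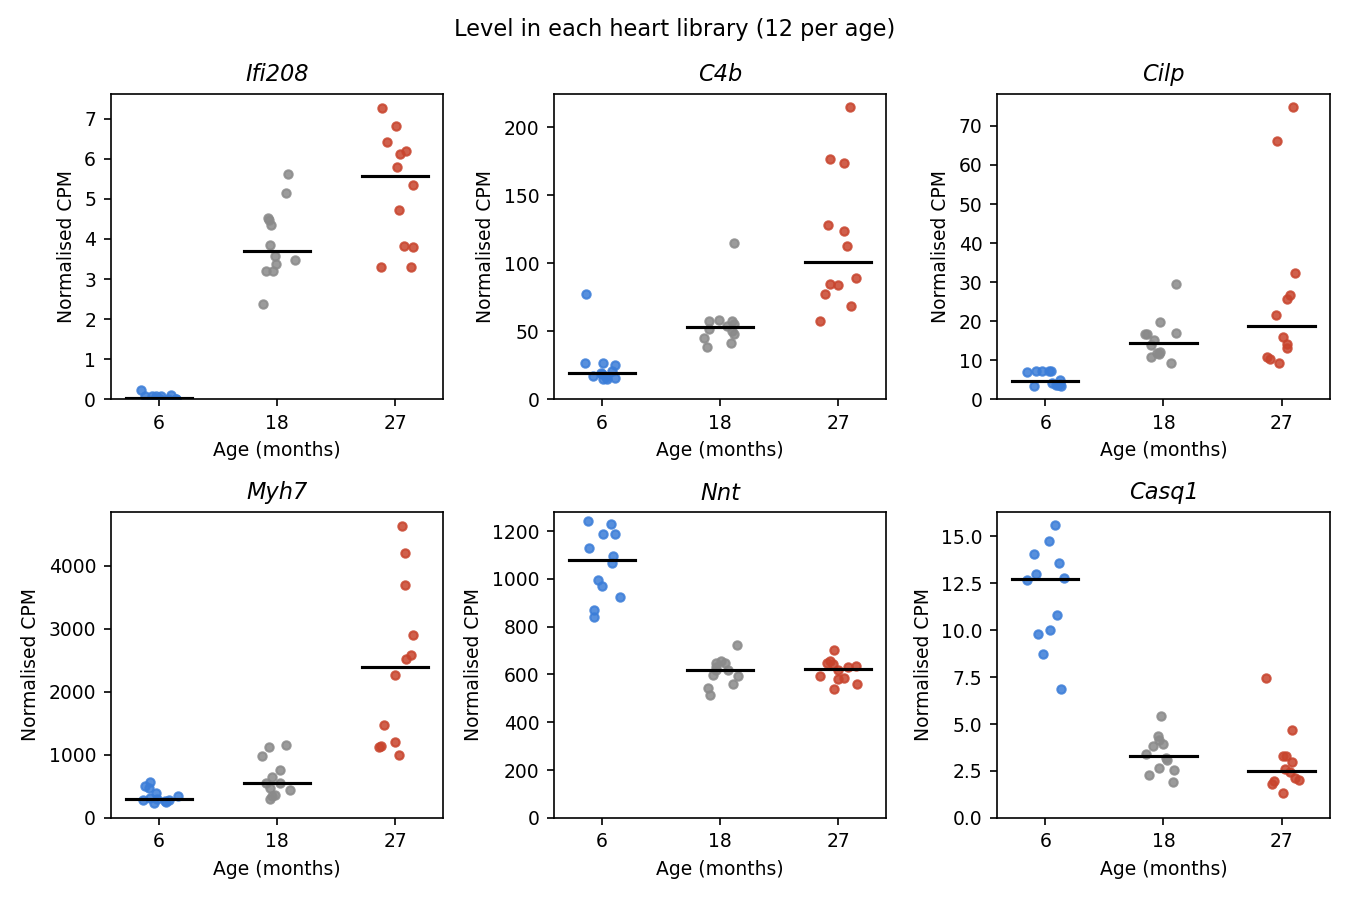
Each point is a heart library (12 per age), with age in months on the x axis and normalised CPM on the y axis from 0, and the black bar is the group's median. Ifi208 and Nnt step between 6 and 18 months, Myh7 rises mainly between 18 and 27 months, and the single young C4b library at 77.4 CPM is that of circadian time 30.

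C4b encodes complement component C4, which is cleaved to build the classical and lectin pathway convertase, and lies at chr17:34728380-34743882 on the minus strand. Young hearts ranged from 15 to 77.4 CPM with a median of 19.1, aged hearts from 38.1 to 115 CPM with a median of 52.9, and old hearts from 57.5 to 215 CPM with a median of 101. Old exceeded young at all 12 times, and the overlap of the ranges comes from the young library of time 30 alone, since the next highest young value was 26.9 CPM. The change was 2.29 (SE 0.25, adjusted p = 2.41e-05), 2.46 (SE 0.20, adjusted p = 3.85e-06) without time 30 and 2.15 (SE 0.24, adjusted p = 7.84e-05) without time 50. Both steps were called, at 1.29 from 6 to 18 months (adjusted p = 0.00261) and 0.99 from 18 to 27 months (adjusted p = 0.0109). The near-identical neighbour C4a was too low to test.

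Of 27 complement genes listed, 22 were tested, 13 rose and 1 fell, with a median change of 0.34. Among the activating enzymes, C1s1 rose by 0.57 (SE 0.07, adjusted p = 7.5e-06) and C1ra by 0.41. C3, on which all pathways converge, rose by 0.65 (adjusted p = 0.00499), by 0.77 (adjusted p = 7.57e-05) without time 30 and by 0.57 (adjusted p = 0.0135) without time 50. Of the terminal components that build the membrane attack complex, C7 rose from 10.01 to 27.0 CPM (median 15.7) to 17.6 to 57.2 CPM (median 30.7), a change of 0.92 (SE 0.12, adjusted p = 4.35e-05), and C6, at a median of 0.0955 CPM in young and 1.23 CPM in old hearts, rose by 1.94. Cd59a, which blocks that complex on host cells, was the member that fell, by 0.44 (SE 0.07, adjusted p = 0.000153). The subunits of C1q, made largely by macrophages, were near the threshold: C1qb was called at 0.30 (adjusted p = 0.0495), C1qa (0.21, adjusted p = 0.148) and C1qc (0.25, adjusted p = 0.0544) were not. Without time 30 all of them were called, and C1qb kept its call in no other case than without time 30, 38 or 62. From 6 to 18 months 10 complement genes rose and 2 fell, and from 18 to 27 months 3 rose and 1 fell. Leaving out each time in turn, the count of members higher in old hearts ran from 10 without time 50 to 15 without time 38. It was 14 without time 30.

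Genes of antigen presentation rose in 11 of 20 tested (21 listed) and none fell, with a median of 0.27; without time 30 the count was 15. The largest rises were in Nlrc5, the transactivator of class I genes (0.82, SE 0.13, adjusted p = 0.000143), and in the class Ib genes H2-Q6 (0.73) and H2-Q7 (0.72), which are close copies of each other. The classical genes H2-K1 and H2-D1 rose by 0.36 and 0.22. B2m, the shared light chain, was at 0.15 (adjusted p = 0.216), and the class II invariant chain Cd74 at 0.22 (adjusted p = 0.128), neither called, though Cd74 was called without time 30.

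Macrophage markers rose in 12 of 16 tested (17 listed), and none fell, with a median of 0.44. Without time 30 the count was also 12, with a median of 0.52. Their summed level was 297 to 705 CPM (median 417) in young, 475 to 893 CPM (median 563) in aged and 401 to 826 CPM (median 523) in old hearts. The ranges overlapped widely, and 13 markers rose from 6 to 18 months against 1 from 18 to 27 months. Gpnmb, a glycoprotein of lipid-laden and scar macrophages, rose from 1.88 to 3.79 CPM (median 2.35) to 5.40 to 10.8 CPM (median 7.40), a change of 1.52 (SE 0.16, adjusted p = 2.32e-06), with no overlap. Lyz1 rose by 1.86, Itgax by 1.09, Trem2 by 0.73 and Cd68 by 0.51 (0.60 without time 30). Cd163, a marker of resident macrophages, was at 0.05 (adjusted p = 0.76), and it alone does not stand for those cells. Among other macrophage genes, Mrc1 was called at 0.32 (adjusted p = 0.0172) without time 50. In the same fit Lyve1 (0.33, adjusted p = 0.052), Folr2 (0.15, adjusted p = 0.228) and Timd4 (0.09, adjusted p = 0.61) were not called. The chemokine gene Ccl8 rose from 0.286 to 10.2 CPM (median 1.70) to 5.90 to 31.3 CPM (median 10.7), a change of 2.77 (SE 0.37, adjusted p = 0.000117) and of 3.19 without time 30, its highest young library. Without time 50 its change was 2.68.

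Transcripts of mast cells went the other way. All 4 granule proteases listed fell: Tpsb2 by 1.24, Cma1 by 1.20, Cpa3 by 1.12 and Mcpt4 by 1.03, and the mast cell growth factor receptor Kit fell by 0.63. Cma1, as an example, ranged from 2.18 to 4.97 CPM (median 3.06) in young and from 0.707 to 2.47 CPM (median 1.14) in old hearts, with the groups overlapping slightly. The neutrophil genes of the same list depended on time 30. S100a8 was at 1.57 (SE 0.67, adjusted p = 0.0753) over all times and 2.5 (SE 0.22, adjusted p = 6e-07) without it, S100a9 at 1.5 (adjusted p = 0.0788) and 2.22 (adjusted p = 9.26e-05), and Csf3r at 1.01 (adjusted p = 0.00908) and 1.33 (adjusted p = 8.73e-05). Leaving out time 50 instead made the changes smaller: S100a8 1.17 (adjusted p = 0.219), S100a9 1.13 (adjusted p = 0.214) and Csf3r 0.78 (adjusted p = 0.0168). The list as a whole had 1 member higher and 5 lower of 8 tested (11 listed), with a median of -0.83. Without time 30, or with library totals alone, 3 were higher and 5 lower. Of the 8 tested, 6 were in the shortest 2 deciles of genes by exon length, and the part of length was not tested further. Of 9 tested B and plasma cell markers 1 rose, the immunoglobulin heavy chain gene Ighg2c, and of 5 tested T and NK cell markers 1 rose (Ccl5) and 1 fell (Thy1).

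**Figure D4:**
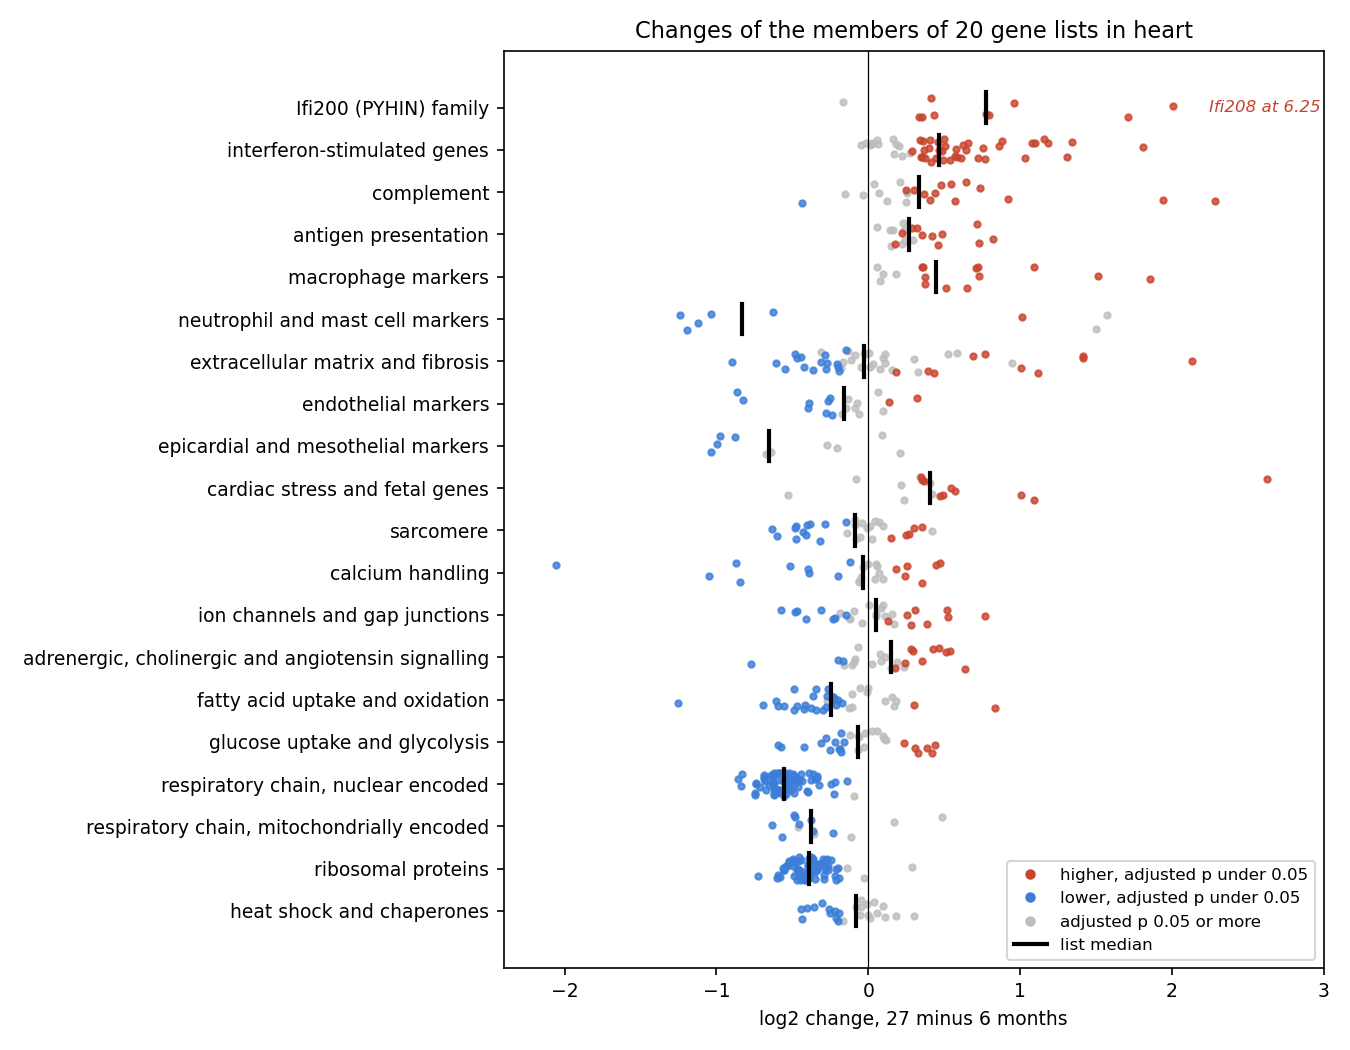
Each point is a tested member of 1 of 20 gene lists, placed by its log2 change (27 minus 6 months), red or blue where higher or lower at an adjusted p under 0.05 and grey otherwise, and the black bar is the list's median. Interferon-stimulated genes lie almost wholly to the right of 0 (38 higher, 0 lower) and nuclear genes of the respiratory chain to the left (0 higher, 77 lower), while sarcomere, calcium handling and matrix genes spread to both sides.

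Among genes of the contractile apparatus, Myh7 changed most. The gene lies at chr14:54970684-54994626 on the minus strand, beside Myh6. Young hearts held 240 to 565 CPM (median 305), aged hearts 300 to 1160 CPM (median 557) and old hearts 993 to 4630 CPM (median 2392). Every old library lay above every young library, yet the old libraries differed among themselves widely. The change was 2.63 (SE 0.28, adjusted p = 1.88e-05). Most of it fell between 18 and 27 months (1.86, adjusted p = 0.00036), and the earlier step was not called (0.78, adjusted p = 0.0583). Myh6 fell by 0.15 (SE 0.05, adjusted p = 0.0362; the call was lost without any of times 18, 30, 34, 38, 46, 54 or 58), from a median of 19972 to 17438 CPM, so the alpha chain remained the more abundant transcript by far.

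Other genes of cardiac stress and of the fetal program moved less. Of 20 listed, 17 were tested, 10 rose and none fell, with a median of 0.41, and 13 rose without time 30. Ankrd1, a titin-associated stretch response gene, rose from 1109 to 1784 CPM (median 1435) to 1347 to 3013 CPM (median 2053), a change of 0.49 (SE 0.12, adjusted p = 0.00315), with overlap. The natriuretic peptide gene Nppb rose by 0.47 (adjusted p = 0.00947), the stress cytokine Gdf15 by 1.09 and the matricellular gene Ccn2 by 1.01. Without time 30, its highest young library, Ccn2 rose by 1.04. Nppa had no simple course: it was at 169 to 311 CPM (median 257) in young, 75.5 to 326 CPM (median 104) in aged and 151 to 740 CPM (median 308) in old hearts. It fell by 0.90 from 6 to 18 months (adjusted p = 0.00783), rose by 1.34 from 18 to 27 months (adjusted p = 0.000615) and was not called between the outer ages (0.42, adjusted p = 0.15). Skeletal alpha actin Acta1, another fetal gene, was at -0.53 (adjusted p = 0.0667) and was called lower without time 26 or 42.

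Sarcomere genes fell more often than they rose, with 12 lower and 5 higher of 30 and a median of -0.08, though with library totals alone the median turned positive (0.03, with 8 higher and 11 lower). The inhibitory troponin Tnni3 fell from 2624 to 4198 CPM (median 3560) to 1854 to 3053 CPM (median 2174), a change of -0.63 (SE 0.08, adjusted p = 1.01e-05). It was lower at all 12 times although the ranges overlapped. The titin cap gene Tcap fell by 0.60, the light chains Myl3 and Myl2 by 0.48 and 0.47, and troponin C (Tnnc1) by 0.48. Transcripts of other members rose: the giant spring protein titin (Ttn) by 0.27, the cardiac myosin light chain kinase Mylk3 by 0.35 and filamin C (Flnc) by 0.30. Of the 30 sarcomere genes, 8 were in the shortest 2 deciles of genes by exon length. The part of length in these falls and rises was not tested beyond the fit described above. From 6 to 18 months 14 of the 30 fell and 1 rose, and from 18 to 27 months 9 fell and 1 rose.

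Calcium handling was split, with 6 genes higher and 9 lower of 25 and a median of -0.04 (0.07 with library totals alone, with 11 higher and 7 lower). Among all genes tested the shares were 21.6% higher and 21.7% lower. Casq1 encodes the skeletal muscle form of calsequestrin, the calcium store of the sarcoplasmic reticulum. It fell from 6.89 to 15.6 CPM (median 12.7) to 1.34 to 7.47 CPM (median 2.5), a change of -2.06 (SE 0.17, adjusted p = 2.8e-07), the largest fall by the same rule. It was at 1.92 to 5.41 CPM (median 3.28) at 18 months, so most of the fall lay in the first step (-1.81, adjusted p = 1.35e-07). Skeletal muscle markers were near the limit of detection at both ages, summing to 3.41 to 7.49 CPM in young and 5.32 to 8.0 CPM in old hearts, and of the 4 tested 1 rose and none fell. The cardiac form Casq2 had medians of 1136 and 1075 CPM and was not called (-0.06, adjusted p = 0.497). The histidine-rich calcium-binding protein gene Hrc fell from 1627 to 2178 CPM (median 1886) to 1166 to 1512 CPM (median 1285), a change of -0.52 (SE 0.05, adjusted p = 5.4e-07), with no overlap. Strit1, which encodes the micropeptide DWORF that activates the calcium pump, fell by 1.05 (SE 0.21, adjusted p = 0.00145). The L-type calcium channel gene Cacna1c and the sodium-calcium exchanger gene Slc8a1 rose by 0.45 and 0.48. The pump itself, Atp2a2, was at 0.07 (adjusted p = 0.456), and its inhibitor Pln fell by 0.12, a call lost without any of times 30, 38, 42, 46 or 54. Of 24 calcium handling genes with a known exon length 5 were in the shortest 2 deciles, and the part of length was not tested further.

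Of 29 ion channel and gap junction genes 8 rose and 8 fell (12 and 5 with library totals alone), where 21.6% of all genes tested rose and 21.7% fell. The sodium channel beta subunit Scn4b rose by 0.77, while the potassium channel Kcnk2 fell by 0.57 and the chloride channel Clcn1 by 0.48. The gap junction gene Gja1 was at 0.10 (adjusted p = 0.147). The pacemaker channel gene Hcn4 fell by 0.43 (SE 0.07, adjusted p = 0.000121) from a median of 14.2 to 10.2 CPM. Cntn2, an adhesion protein of the conduction system, fell by 1.26 (SE 0.26, adjusted p = 0.00139), with young libraries spread from 1.31 to 8.78 CPM and old ones from 1.18 to 2.57 CPM. In neurohormonal signalling 10 of 25 tested genes rose and 3 fell (17 and 1 with library totals alone), with a median of 0.15. Grk5, a kinase that desensitises adrenergic receptors, rose from 38.9 to 68.4 CPM (median 49.6) to 61.5 to 102 CPM (median 75.6), a change of 0.64 (SE 0.07, adjusted p = 1.99e-06), at all 12 times. The alpha-1A adrenergic receptor gene Adra1a rose by 0.51 and the endothelin receptor gene Ednra by 0.47, and the main cardiac beta receptor gene Adrb1 was not called (0.09, adjusted p = 0.28) except without time 34.

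Extracellular matrix genes went both ways, with 10 higher and 16 lower of 48 and a median of -0.03 (0.08, with 17 higher and 9 lower, using library totals alone). For all genes tested the shares were 21.6% higher and 21.7% lower. Cilp, a secreted antagonist of growth factor signalling at chr9:65265180-65280605, rose from 3.33 to 7.32 CPM (median 4.57) to 9.32 to 74.7 CPM (median 18.7), a change of 2.13 (SE 0.21, adjusted p = 6.54e-06), with no overlap. The old libraries of times 50 and 26 were far above the rest, at 74.7 and 66.2 CPM. Periostin (Postn) had the same 2 libraries on top, at 363 and 210 CPM against a median of 82.7, and rose by 1.12 (SE 0.26, adjusted p = 0.00418). Without time 50 the changes were 1.99 for Cilp and 0.95 for Postn (adjusted p = 0.00605). Ltbp2 and the stromelysin gene Mmp3 each rose by 1.41 and Tgfb2 by 0.77, at all 12 times. Among the 16 that fell, elastin (Eln) fell by 0.48, Col3a1 by 0.47, the collagen chaperone Sparc by 0.44, the basement membrane collagen Col4a1 by 0.42, fibromodulin (Fmod) by 0.90 and the protease inhibitor Timp4 by 0.61. Col1a1 was at 60.1 to 127 CPM in young and 28.4 to 231 CPM in old hearts and was not called (-0.31, adjusted p = 0.116) except without time 50, and the call of Col3a1 was lost without time 22, 46 or 58. The count of matrix genes higher in old hearts was 8 without time 42, 50 or 58 and 17 without time 38.

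Cell type markers of the wall showed modest shifts. Of 18 endothelial markers 8 fell and 2 rose (5 and 3 with library totals alone), with a median of -0.16 and a summed level of 2484 to 4100 CPM (median 3541) in young and 2476 to 3319 CPM (median 2688) in old hearts. The water channel gene Aqp1 fell by 0.87 and the apelin receptor gene Aplnr by 0.83, while the arterial factor Sox17 rose by 0.32. Of 10 epicardial and mesothelial markers 4 fell, among them Upk3b (-1.03, SE 0.26, adjusted p = 0.00674) and mesothelin (Msln, -0.99), and none rose (with library totals alone 4 fell and 1 rose); the count that fell was 3 without time 38 or 50 and 6 without time 30 or 62. Their summed level of 36.3 to 117 CPM (median 63.2) in young and 19.2 to 66.8 CPM (median 51.3) in old hearts was low, and how much epicardium each pool held is not recorded. Of 10 fibroblast markers 1 rose and 2 fell, with a median of -0.07 (0.04 with library totals alone, with 1 higher and 1 lower). Of 13 smooth muscle and pericyte markers 1 fell and none rose, against 5 higher and 1 lower with library totals alone, and 3 were higher without time 22 and 2 without time 18 or 46. None of 16 cell cycle genes was called by edgeR or by DESeq2, and 0 had an unadjusted p under 0.05 in edgeR, while 2 were called lower without time 34.

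Genes of fatty acid uptake and oxidation fell more often than they rose. Of 38 listed, 24 fell and 2 rose (18 and 4 with library totals alone), with a median of -0.25, and 15 were lower at all 12 times. By exon length 7 of the 38 were in the shortest 2 deciles of genes and 24 in the shorter 5, and the part of length was not tested further. Acaa2, the mitochondrial thiolase that completes each round of beta-oxidation, fell from 1184 to 1595 CPM (median 1488) to 816 to 1177 CPM (median 924), a change of -0.59 (SE 0.07, adjusted p = 6.2e-06), with no overlap. Etfb, which passes electrons from acyl-CoA dehydrogenases to the respiratory chain, fell by 1.25, and Ech1 and Eci1, which act on unsaturated fatty acids, by 0.62 and 0.61. Cpt2, which releases fatty acids from carnitine in the matrix, fell by 0.55, and the cytosolic carrier Fabp3 by 0.49. The importer Cd36 was at 0.00 (adjusted p = 0.989). The 2 that rose were regulators: the nuclear receptor Ppara (0.84, SE 0.14, adjusted p = 0.00022) and its coactivator Ppargc1a (0.30, adjusted p = 0.00416). From the list, 12 fell from 6 to 18 months and 20 from 18 to 27 months, when 3 rose.

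In glucose uptake and glycolysis 12 of 29 genes fell and 6 rose, with a median of -0.06 (0.05 with library totals alone, with 9 higher and 5 lower). The muscle enolase Eno3 fell from 1672 to 2220 CPM (median 2018) to 1089 to 1658 CPM (median 1290), a change of -0.59 (SE 0.05, adjusted p = 5.11e-07), with no overlap, and the muscle phosphoglycerate mutase Pgam2 by 0.58. Hexokinase 1 (Hk1) rose by 0.42 and Pfkfb2, which makes the activator of phosphofructokinase, by 0.44.

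Genes of the respiratory chain fell almost without exception. Of 78 nuclear genes for its subunits, 77 fell and none rose, with a median change of -0.55, and 50 were lower at all 12 times. Their summed level was 45278 to 66696 CPM (median 58997) in young, 45593 to 62941 CPM (median 50245) in aged and 35673 to 51063 CPM (median 40383) in old hearts. The fall ran through both steps, with 61 lower by 18 months and 66 lower between 18 and 27 months. Complex I, which oxidises NADH, fell in 36 of 37 subunits (median -0.59), complex II in 4 of 4 (median -0.29), complex III in 9 of 9 (median -0.55), complex IV, which reduces oxygen, in 12 of 12 (median -0.60), and ATP synthase in 15 of 15 (median -0.54). In complex I, Ndufb9 fell from 118 to 290 CPM (median 217) to 80.5 to 178 CPM (median 104), a change of -0.86 (SE 0.13, adjusted p = 0.000132). The core subunit Ndufs1 was the exception, at -0.09 (adjusted p = 0.0783), and was called without time 26. In complex IV, the muscle isoform gene Cox7a1 fell from 280 to 527 CPM (median 418) to 165 to 329 CPM (median 220), a change of -0.83 (SE 0.12, adjusted p = 5.86e-05). The ATP synthase gene Atp5k fell by 0.83 and Atp5a1, which encodes the alpha subunit, by 0.24.

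Of the 13 subunits encoded in mitochondrial DNA, 8 fell and none rose, with a median of -0.38. The cytochrome b gene mt-Cytb fell by 0.48 (SE 0.06, adjusted p = 9.88e-06) and mt-Co1 by 0.38, both at all 12 times, mt-Nd6 by 0.63 and mt-Co2 by 0.57. Nuclear genomes carry copies of mitochondrial DNA, so reads of these genes may also be counted elsewhere. Ribosomal protein genes fell as widely: 73 of 77 tested (78 listed) were lower and none higher, with a median of -0.39, though only 5 were lower at all 12 times, and 16 were lower in the first step and 3 in the second. In the large subunit 43 of 45 fell and in the small subunit 29 of 30. Rps29 fell from 105 to 213 CPM (median 166) to 67.4 to 148 CPM (median 97.5), a change of -0.73 (SE 0.11, adjusted p = 0.000149), and Rpl36 by 0.60, whereas Rpl3 was at -0.03 (adjusted p = 0.776). Heat shock and chaperone genes fell in 11 of 25 and rose in none, with a median of -0.08 (0.03 with library totals alone, with 4 higher and 7 lower).

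Of 77 nuclear respiratory chain genes with a known exon length 50 were in the shortest 2 deciles of genes, as were 48 of 77 ribosomal protein genes and all 13 mitochondrially encoded ones, and short genes were lower in old hearts in general. With the trend on length and GC content removed, 74 of 77 nuclear respiratory chain genes were still lower (median -0.33) and 54 of 77 ribosomal protein genes (median -0.22), and for the mitochondrially encoded genes the counts were 5 lower and 1 higher (median -0.11). With library totals alone, 76 of 78 respiratory chain and 61 of 77 ribosomal protein genes were lower. The share of counts on ribosomal protein genes was also lower in old libraries, with a median of 1.79% against 2.28% in young ones.

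Several genes stepped between 6 and 18 months and then held their level. Nnt, which encodes the mitochondrial transhydrogenase that regenerates NADPH, was at 839 to 1243 CPM (median 1080) in young, 512 to 721 CPM (median 618) in aged and 541 to 702 CPM (median 625) in old hearts. Old and young did not overlap, aged and old did. The change was -0.78 (SE 0.06, adjusted p = 3.1e-08), and the old minus aged difference was 0.01 (adjusted p = 0.912). Nnt is best known for a deletion that C57BL/6J mice carry and C57BL/6N mice do not. The labels name 1 strain at all ages, and whether the mice of 6 months came from another source or substrain than the older mice was not tested and cannot be told apart from age.

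Other genes with most of their change before 18 months changed in the same direction in every tissue in which they were tested. Wdfy1, an adaptor of Toll-like receptor signalling at chr1:79702262-79776143, fell from 37.0 to 43.3 CPM (median 41.4) in young to 8.12 to 11.9 CPM (median 9.28) in aged and 7.32 to 14.5 CPM (median 11.6) in old hearts, where the later step was a small rise (0.27, adjusted p = 0.0116). Its old minus young change was -1.83 in heart (SE 0.08, adjusted p = 1.39e-11), and between -1.20 (adrenal gland) and -2.28 (lung) elsewhere. Ide, the insulin-degrading enzyme gene at chr19:37268743-37337852, rose from 75.6 to 110 CPM (median 92.2) to 153 to 208 CPM (median 197) at 18 months and 150 to 244 CPM (median 211) at 27 months, a change of 1.15 (SE 0.05, adjusted p = 8.96e-11) in heart against 0.32 (kidney) to 0.92 (adrenal gland) elsewhere, a difference of 0.54 between heart and their mean (adjusted p = 1.36e-05). The predicted gene Gm15446 had 5 counts in all young heart libraries together, 872 in aged and 1133 in old ones, and Gm28438, a copy of mitochondrial sequence on chromosome 1, fell by 3.71. Gm49980 fell by 2.83, Dynlt1b by 1.66, Tmem181b-ps by 1.28 (with a rise of 0.41 in the later step, adjusted p = 0.0136), and Ighg2c rose from 6.52 to 12.5 CPM (median 9.41) to 30.6 to 43.3 CPM (median 35.3), with 29.8 to 38.9 CPM (median 33.5) at 18 months. Ifi208, described above, shares this course in heart. Of the genes named here, Nnt, Ide, Wdfy1 and Gm15446 were listed together with earlier results known.

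The remaining large rises were in genes that are low in heart. Vgll2, a cofactor of the TEAD transcription factors active in skeletal muscle development, rose from 0 to 0.612 CPM (median 0.231) to 1.28 to 9.04 CPM (median 3.16), a change of 3.99 (SE 0.31, adjusted p = 1.3e-07). Dpp6, an auxiliary subunit of A-type potassium channels, rose by 3.94, from at most 0.509 CPM to at least 1.09 CPM. Prom2, a membrane protrusion protein, rose from 0.203 to 0.925 CPM (median 0.457) to 3.67 to 6.83 CPM (median 4.6), a change of 3.27 (SE 0.16, adjusted p = 8.96e-11). The noncoding Snhg11 rose by 3.0, the postsynaptic scaffold gene Dlgap1 by 2.96, Cpne4 by 2.72, Amtn by 2.64, the potassium channel genes Kcnc1 and Kcnk1 by 2.5 and 2.30, and the predicted C130026I21Rik by 3.05. For each of them every old library lay above every young one, and the rise from 6 to 18 months was called. Dkk3, which was on the list of atrial markers, rose by 2.0 (SE 0.14, adjusted p = 2.18e-08), from 1.31 to 2.99 CPM (median 2.22) to 5.85 to 16.6 CPM (median 7.79). It was the 1 member of that list that rose of 8 tested, while Myl7 (-0.62, a call lost without time 18 or 38) and Nr2f2 (-0.20) fell and the list's median was -0.08 (0.03 with library totals alone, with 2 higher and none lower).

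Large falls included genes of catecholamine synthesis, a theme picked out after the values were seen. Ddc, aromatic amino acid decarboxylase, fell from 1.83 to 5.91 CPM (median 3.49) to 0.478 to 1.84 CPM (median 0.831), a change of -1.79 (SE 0.19, adjusted p = 3.61e-06). Dbh, which makes noradrenaline, fell by 1.08 from a median of 4.74 to 2.55 CPM, and Pnmt, which makes adrenaline, by 1.40 from 1.69 to 0.679 CPM, in both cases with no overlap. The dopamine receptor gene Drd2 fell by 1.60. Of 6 tested nerve and Schwann cell markers (9 listed), among them Dbh, 4 fell and 1 rose, and their summed level was 29.6 to 48.2 CPM (median 39.0) in young and 26.5 to 41.4 CPM (median 34.3) in old hearts. Other large falls were in Lypd2 (-1.81), the ciliary dynein gene Dnaic1 (-1.28) and the crystallin gene Crybb1 (-1.25).

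Smaller lists are given by their counts. Mitochondrial quality control and antioxidant genes rose in 11 and fell in 14 of 36 (17 and 13 with library totals alone), with Nqo1 up by 0.55, the mitophagy receptor Bnip3 up by 0.50 and peroxiredoxin 5 (Prdx5) down by 0.63. Autophagy and lysosome genes rose in 4 and fell in 3 of 25, against 16 and 1 with library totals alone and 12 and 4 with the length and GC trend removed. Among senescence and p53 target genes 7 of 22 tested rose and 2 fell (12 and 0 with library totals alone), with the cell cycle inhibitor gene Cdkn1a up by 0.68 (SE 0.10, adjusted p = 4.79e-05), and Cdkn2a was too low to test; without time 26 or 30, 4 rose. Of 18 clock genes 5 rose, among them Bhlhe40 (0.51) and Per2 (0.40), and 1 fell, Hlf (-0.41), while the clock output gene Dbp was not called (-0.17, adjusted p = 0.182). The number of clock genes that rose was 2 without time 38, 50 or 54, 8 without time 58 and 1 with the length and GC trend removed, and the call of Per2 was lost without any of times 22, 30, 38, 50 or 54. Of 11 tested immediate early genes, which respond to handling and stress of tissue, Junb rose (0.34, adjusted p = 0.0365), a call kept only when time 30, 34 or 38 was the one left out, and without time 30, 6 rose.

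To ask whether the heart differed from the rest of the body, the change in heart was tested against the mean change of the other 5 tissues in 1 fit over all young and old libraries of the 6 tissues. Of 21552 genes tested, 4976 (23.1%) changed more positively and 2806 (13.0%) more negatively in heart. With median-of-ratios scaling the split was 3790 against 3711. The fit does not model that 1 mouse may have given several of the tissues. Within the tissues, using genes also tested in heart, 6.32% rose and 7.66% fell in adrenal gland, 17.1% and 18.3% in skeletal muscle, 19.5% and 28.9% in lung, 21.6% and 21.8% in hypothalamus, and 32.4% and 32.1% in kidney.

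Respiratory chain genes stood lower in heart than elsewhere. In 71 of its 78 nuclear genes the change was more negative in heart than in the other tissues, and in none more positive, with a median difference of -0.57 against 0.09 over all genes. Medians elsewhere ran from -0.10 in adrenal gland, where 1 gene fell, to 0.37 in hypothalamus, where 47 rose. Ndufb9, at -0.86 in heart, was at -0.12 in adrenal gland, 0.12 in kidney, 0.15 in skeletal muscle, 0.30 in hypothalamus and 0.43 in lung, a difference of -0.96 (adjusted p = 5.2e-07). Ribosomal protein genes were more negative in heart in 75 of 77, and in 4 of the 5 other tissues most of them rose: 49 in muscle, 64 in lung, 73 in kidney and 73 in hypothalamus. Fatty acid genes were more negative in heart in 17 of 38 and more positive in 4. The relation of change to gene length differed between tissues as well, with Spearman's rho of 0.37 in heart, 0.08 in adrenal gland, -0.20 in skeletal muscle, -0.35 in lung, -0.30 in kidney and -0.53 in hypothalamus, and 0.50 for the difference between heart and the others. Its part in the tissue differences of these short genes was not tested.

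**Figure D5:**
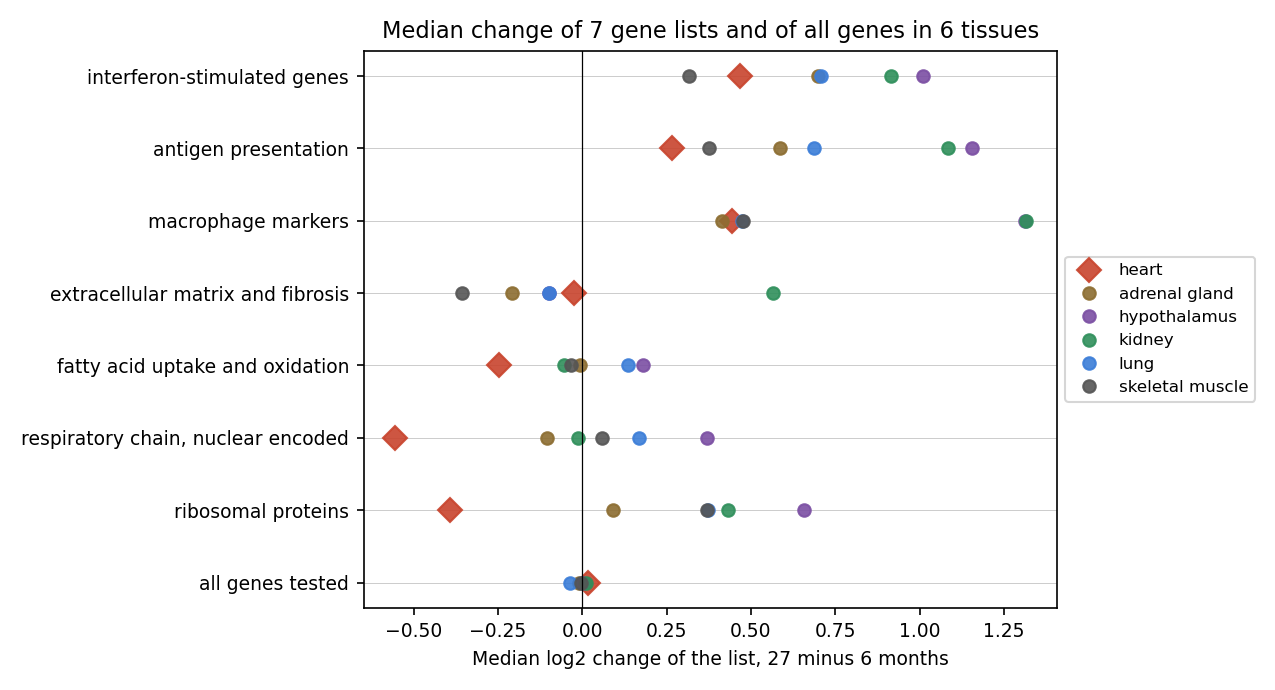
Each symbol is the median log2 change (27 minus 6 months, x axis) of a gene list or of all genes tested, in heart (red diamond) or another tissue (circles). Heart lies left of all other tissues for respiratory chain (-0.55), ribosomal protein (-0.39) and fatty acid genes (-0.25), and has the smallest median for antigen presentation (0.27).

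Several immune lists had smaller changes in heart than in most other tissues. For interferon-stimulated genes the median change was 0.47 in heart, 0.32 in skeletal muscle, 0.70 in adrenal gland, 0.71 in lung, 0.92 in kidney and 1.01 in hypothalamus, and 15 of 51 were more negative and 5 more positive in heart. For antigen presentation 12 of 20 were more negative and none more positive, with a median difference of -0.36. Ifi208 went against this, with a change in heart 3.13 above the mean of the other 5 tissues (adjusted p = 1.46e-05). It also rose by 4.28 in adrenal gland, 4.51 in kidney and 1.16 in lung. The mean takes in hypothalamus and skeletal muscle as well, where Ifi208 was too low to test, so the difference rests in part on few counts. C4b rose in every tissue, by 1.16 in adrenal gland, 1.27 in lung, 1.46 in muscle, 1.63 in kidney and 1.98 in hypothalamus, and by 0.87 more in heart than their mean (adjusted p = 0.0245). Myh7 rose by 2.26 more than elsewhere (adjusted p = 0.000603). Grk5 was at -0.29 to 0.23 in the other tissues and 0.80 above their mean in heart (adjusted p = 4.24e-09), and Dkk3, Cilp, Postn and Tgfb2 were 1.68, 1.21, 1.34 and 0.94 above it. Dpp6, Dlgap1, Snhg11 and Prom2 had the largest positive differences besides Ifi208, from 3.02 to 3.47.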

How the data were processed

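RNA was measured by poly(A) RNA-seq after Trizol extraction, per the labels' protocols. The authors deposited a table of raw counts per gene for all 216 libraries and a table of CPM. The deposited CPM values equal count divided by library total to within 4.98e-06, and only the counts were used. The submitters' processing notes name HISAT2, HTSeq and the GRCm38 and mm10 builds, and versions, annotation and use of strand were not given in the sources used here, so overlapping and antisense genes cannot be separated. Of 55376 gene names, 54486 matched GENCODE M21, from which positions and exon lengths were taken.

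Genes were filtered with edgeR 4.0.16 (filterByExpr, minimum count 10) in R 4.3.3, scaled by TMM and fitted with glmQLFit (robust) and glmQLFTest, two-sided, with age and a block of 12 circadian times, leaving 11 residual degrees of freedom. P-values were Benjamini-Hochberg adjusted over all genes tested, with a threshold of 0.05. The SE is the log2 change over the root of the F statistic. Steps through 18 months came from a fit of the 36 heart libraries, and the comparison with other tissues from a fit of all young and old libraries with tissue by time as block. The scripts were tested on simulated data. Levels are normalised CPM with TMM factors over 36 heart libraries. No 2 heart libraries agreed within sampling noise (lowest chi-square per degree of freedom 3.89 over 630 pairs).

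Same-time young and old libraries deviated together at some times and not at others (correlations -0.08 to 0.48, over 0.1 at 8 of 12 times), so time serves as a block for the daily rhythm and not as a pairing of mice. The genes named were C4b and Ifi208, the 12 largest rises and falls with the same sign at all 12 times and a mean of at least 1 CPM, the 2 largest predicted genes each way, the 2 largest changes each way in each of 42 lists, the 6 most abundant genes changed by at least 1.5-fold, and the 5 largest tissue differences each way, and list members that complete an account. The comparison, its members and the lists were chosen with earlier results of these data known. Promoter sequences are from RefSeq. Alternatives covered scaling, filtering, DESeq2 1.42.0, the block, depth, single times and length. A few genes that the rule names are not reported here.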

Additional observations from a re-analysis of the deposited data

Results flagged for a closer look

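In the interaction test of the heart's change against the mean change of the other 5 tissues, 7782 of 21552 genes had an adjusted p under 0.05. The 11 genes given here are C4b and the 5 largest differences each way under the rule for named genes. That rule took only genes called in this test, so for all but C4b the call was fixed by the choice. C4b was 0.87 and Ifi208 3.13 above that mean on the log2 scale. For Ifi208 the mean takes in hypothalamus and skeletal muscle, where the gene was too low to test. Dpp6 (3.47), Dlgap1 (3.44), Snhg11 (3.20) and Prom2 (3.02) were the other genes with the largest positive differences under the rule for named genes. All 6 were called higher in the step from young to aged heart.

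Casq1 (-3.03), Ckm (-2.47), Tpt1-ps6 (-2.35), Cntn2 (-2.15) and Rps15a-ps7 (-2.07) had the largest negative differences under the same rule. In heart the muscle creatine kinase gene Ckm fell by 0.47, from a median of 2918 to 2009 CPM. For the muscle genes Casq1 and Ckm the adrenal gland showed changes of 3.87 and 3.13 (adjusted p = 0.0982 and 0.153), which enter the mean. Tpt1-ps6 and Rps15a-ps7 are processed copies of other genes, and they may share reads with the parent genes, which cannot be traced from counts.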

How the results depend on the processing

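Old against young heart gave 6255 genes called. The count was 178 with a test for a change above 1.5-fold (147 higher, 31 lower), 3930 at an adjusted p under 0.01, 2058 with times 18 to 38 alone and 3365 with times 42 to 62 alone. The last 2 have fewer libraries. Leaving out each time gave 5246 (time 50) to 6615 (time 22). Other settings gave 5505 (length and GC trend removed) to 7577 (library totals), with DESeq2 at 5773. The scaling to library totals and the length fit were chosen after seeing the data. Aged against young gave 2552, and 1532 to 3612 leaving out each time. It was 1658, 1656 and 1532 without times 42, 46 and 50, and 3612 without time 30. Old against aged gave 2643, and 1514 to 3135, with 1514 and 1660 without times 38 and 54. The tissue difference gave 7782, and 6054 with skeletal muscle alone.

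No replicate block, that is no term for circadian time, gave 5722, 2078, 2129 and 7689 genes in these 4 comparisons. Same-time correlations ran from -0.08 to 0.48, over 0.1 at 8 of 12 times, and 3 of 12 libraries correlated best with their own time.

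No called gene named here changed direction under these settings. This and the counts that follow leave out Mrc1, Lyve1, Folr2 and Timd4. Of 157 named and called genes, 9 lost the call when some single time was left out: C1qb, Col3a1, Ifi211, Junb, Myh6, Myl7, Per2, Pln and Ryr2. Of 19 tested and not called, 9 gained one: Acta1, Adrb1, C1qa, C1qc, Cd74, Col1a1, Ndufs1, S100a8 and S100a9. The cause was not tested. Without the block 11 of the 157 lost the call, with times 18 to 38 alone 38 did, and with DESeq2 none did. With the length and GC trend removed 8 lost it, and 8 of the genes not called gained a call. With library totals alone 5 lost it and 9 of the genes not called gained one. In the test for a change above 1.5-fold 108 lost it. Genes near 1 CPM rest on few counts per library. In data simulated on the 14445 genes of old against young heart, 86% of 1.5-fold and 99% of 2-fold changes were recovered, and smaller changes were not simulated. Only 100 genes were changed at each fold, and 8 unchanged genes were called. Counts were drawn from the spread fitted to each gene, without outlying libraries or a length trend, so these rates do not cover such features of the real data.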

Other observations

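Some genes fall outside the comparisons above and are given as values. Slc4a1, the anion exchanger of red cells, rose by 1.51 (SE 0.24, adjusted p = 0.000177), from 0.798 to 7.05 CPM (median 1.91) in young to 1.12 to 23.6 CPM (median 6.48) in old hearts, and was the only 1 of 6 red cell markers called. Bmp10, a cardiac growth factor gene taken here as an atrial gene, was too low to test. It was at 0 to 0.230 CPM in young, 0.102 to 0.999 CPM in aged and 0.436 to 2.52 CPM in old hearts, with every old library above every young library. It was singled out after its values were seen.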
